A study of Homo sapiens with 19 samples.

Results

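The 9 genes described here are AHR, AHRR, SIM2, NPAS2, ARNT2, CYP1A1, CYP1B1, TIPARP and NQO1, chosen by name from the 23441 gene symbols of the RNA-seq count table as dimer partners of HIF-1b other than the HIF-a subunits, their relatives, and genes known to respond to AHR. 786-O cells were originally derived from a human clear cell kidney cancer and are grown as a standard line. They lack functional VHL, so that HIF-a protein is not degraded in normoxia, and their own HIF1A transcripts are truncated. Pools of these cells were transduced with lentivirus carrying the empty pRRL vector (control), pRRL-HIF-1a (HIF-1a re-expressing) or pRRL-HIF-2a (HIF-2a overexpressing), each vector also encoding EGFP behind an internal ribosome entry site. All cells come from a single cell line, lack VHL and were grown in the same medium. How many pools were transduced with each virus is not given in the sources used here, and pool below means the cells of 1 virus. ChIP-seq with antisera to HIF-1b and HIF-2a in all 3 pools, and to HIF-1a in the HIF-1a cells, gave 7 lists of peaks from 1 library each, and polyadenylated RNA from each pool gave 3 libraries numbered 1 to 3.

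HIF-1b is the product of ARNT, a protein of the basic helix-loop-helix PAS family that binds DNA as a dimer. Its partners include HIF-1a, HIF-2a, the aryl hydrocarbon receptor AHR and the single-minded proteins. The dimers with HIF-1a and HIF-2a read the same short core sequence, and the dimer with AHR reads a related one. AHR is held in the cytoplasm by chaperones until a ligand, such as a combustion product, a dietary indole or a tryptophan metabolite, releases it to the nucleus, where with HIF-1b it switches on enzymes of xenobiotic metabolism and its own repressors. A HIF-1b peak that carries no HIF-a peak is a place where another partner could be looked for, but it does not by itself show one.

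In the transcripts, AHR was the 1 gene of the 9 that was called with all libraries in the fit, and only with a replicate block or in DESeq2. Its mRNA in the 3 HIF-1a libraries was 1.45 to 2.36 times that of the control library of the same number, SIM2 had its 3 lowest values in the HIF-1a libraries, and none of the AHR target genes was called changed against control in either pool. In chromatin, AHR, AHRR, NPAS2, CYP1B1 and TIPARP had a HIF-1a and a HIF-1b peak at a start site in the HIF-1a cells, and AHRR was the 1 gene of the 9 with a HIF-1b peak lacking HIF-a within 10 kb of a start site. A further HIF-1b peak without HIF-a, inside the AHRR gene, was present in all 3 pools.

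Sequences under some of the peaks described below are shown first. Capitals mark ACGTG and GCGTG, the 2 forms of the HIF core, and where CACGT or CACGC is in capitals the core reads on the other strand. The core of the AHR and HIF-1b dimer was searched as TNGCGTG, which contains GCGTG, and the E-box as CACGTG, which contains ACGTG. All 4 were searched on both strands. Positions are on GRCh37. Promoters are from RefSeq (table of GRCh38.p14), run from 250 bases before to 50 bases after a start site, and were placed on GRCh37 by an exact match found at a single place.

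The AHR promoter, chr7:17338026-17338325 on the plus strand, is shown because AHR is the gene of the 9 with the smallest p-values in the RNA comparisons with HIF-1a cells. It lies wholly inside the HIF-1a peak and the HIF-1b peak of the HIF-1a cells and inside the HIF-2a peak of the HIF-2a cells, and it holds a CACGTG palindrome.
AHR promoter: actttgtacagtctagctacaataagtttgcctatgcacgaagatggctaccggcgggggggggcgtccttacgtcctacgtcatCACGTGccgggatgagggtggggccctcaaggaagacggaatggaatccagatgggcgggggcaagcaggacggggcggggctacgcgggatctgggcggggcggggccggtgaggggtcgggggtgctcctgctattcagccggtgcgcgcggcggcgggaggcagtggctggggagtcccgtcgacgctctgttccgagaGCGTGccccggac

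The first AHRR promoter of the table, chr5:321579-321878 on the plus strand, is shown because a HIF-1b peak without HIF-a covers it in the HIF-1a cells. It holds 1 GCGTG, which is part of a TNGCGTG.
AHRR promoter: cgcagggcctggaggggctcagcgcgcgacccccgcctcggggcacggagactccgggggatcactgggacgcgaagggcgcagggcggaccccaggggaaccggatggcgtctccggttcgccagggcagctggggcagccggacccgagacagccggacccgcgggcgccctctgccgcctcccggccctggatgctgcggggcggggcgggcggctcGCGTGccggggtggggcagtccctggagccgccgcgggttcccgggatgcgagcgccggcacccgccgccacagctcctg

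The intronic stretch of AHRR, chr5:373987-374286 on the plus strand, is the 300-base centre of the 2104 bp that the HIF-1b peaks of all 3 pools have in common, with no HIF-a peak in any pool. It holds 4 matches to GCGTG, of which 3 are TNGCGTG.
AHRR intron: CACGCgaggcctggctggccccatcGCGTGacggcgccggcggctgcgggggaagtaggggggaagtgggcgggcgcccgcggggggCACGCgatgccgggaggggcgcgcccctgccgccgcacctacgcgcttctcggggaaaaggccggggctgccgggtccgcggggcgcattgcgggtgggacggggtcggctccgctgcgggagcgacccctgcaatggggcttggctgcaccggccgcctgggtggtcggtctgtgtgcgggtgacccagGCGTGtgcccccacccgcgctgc

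The CYP1B1 stretch, chr2:38303840-38304139 written on the plus strand while the gene is on the minus strand, is the centre of the 1219 bp common to peaks of all 7 lists.
CYP1B1 start: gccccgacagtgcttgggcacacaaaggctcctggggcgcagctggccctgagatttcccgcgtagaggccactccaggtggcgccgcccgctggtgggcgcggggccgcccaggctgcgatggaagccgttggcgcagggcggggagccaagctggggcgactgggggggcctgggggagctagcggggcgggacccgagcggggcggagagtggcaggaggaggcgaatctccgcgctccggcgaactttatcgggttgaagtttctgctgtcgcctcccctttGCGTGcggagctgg

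The first TIPARP promoter, chr3:156392129-156392428 on the plus strand, is shown as an AHR target with HIF-1b at its start in control cells. It holds 2 GCGTG, both on the other strand, and no TNGCGTG.
TIPARP promoter: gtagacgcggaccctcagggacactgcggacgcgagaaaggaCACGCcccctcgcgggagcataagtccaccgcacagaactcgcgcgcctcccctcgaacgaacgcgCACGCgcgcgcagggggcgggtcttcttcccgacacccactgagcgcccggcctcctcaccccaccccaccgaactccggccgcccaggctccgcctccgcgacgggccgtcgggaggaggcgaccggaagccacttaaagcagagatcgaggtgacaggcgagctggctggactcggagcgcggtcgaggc

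The NQO1 promoter, chr16:69760414-69760713 read on the minus strand of the gene, was covered by overexpressed HIF-2a alone.
NQO1 promoter: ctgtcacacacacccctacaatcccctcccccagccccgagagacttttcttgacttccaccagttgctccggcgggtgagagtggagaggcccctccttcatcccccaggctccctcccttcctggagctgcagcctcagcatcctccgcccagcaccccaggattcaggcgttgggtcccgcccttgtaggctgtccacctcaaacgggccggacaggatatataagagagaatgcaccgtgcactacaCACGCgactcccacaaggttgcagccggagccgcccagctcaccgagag

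Near was defined as a peak midpoint within 10 kb of any annotated start site of a gene. Over the 7 lists 6 of the 9 genes had such a peak, against 39.0% of 22063 annotated genes. SIM2, ARNT2 and CYP1A1 had none. The peak nearest the limit on the inside was at -3.42 kb (AHRR) and the nearest outside it at 10.4 kb (ARNT2). HIF-1b and HIF-1a in the HIF-1a cells each marked the same 5 genes, where 28.1% and 24.0% of all genes had a peak. HIF-1b in control cells marked 2 (18.4% of all genes), and in HIF-2a cells also 2 (11.4%). HIF-2a marked CYP1B1 alone in control cells (3.77%) and in HIF-1a cells (3.06%), and 3 genes in the HIF-2a cells (10.4%). The lists carry no score or read count and each antiserum was used once per pool, so these are counts without a test, and a missing peak says only that none passed the authors' thresholds.

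**Figure D1:**
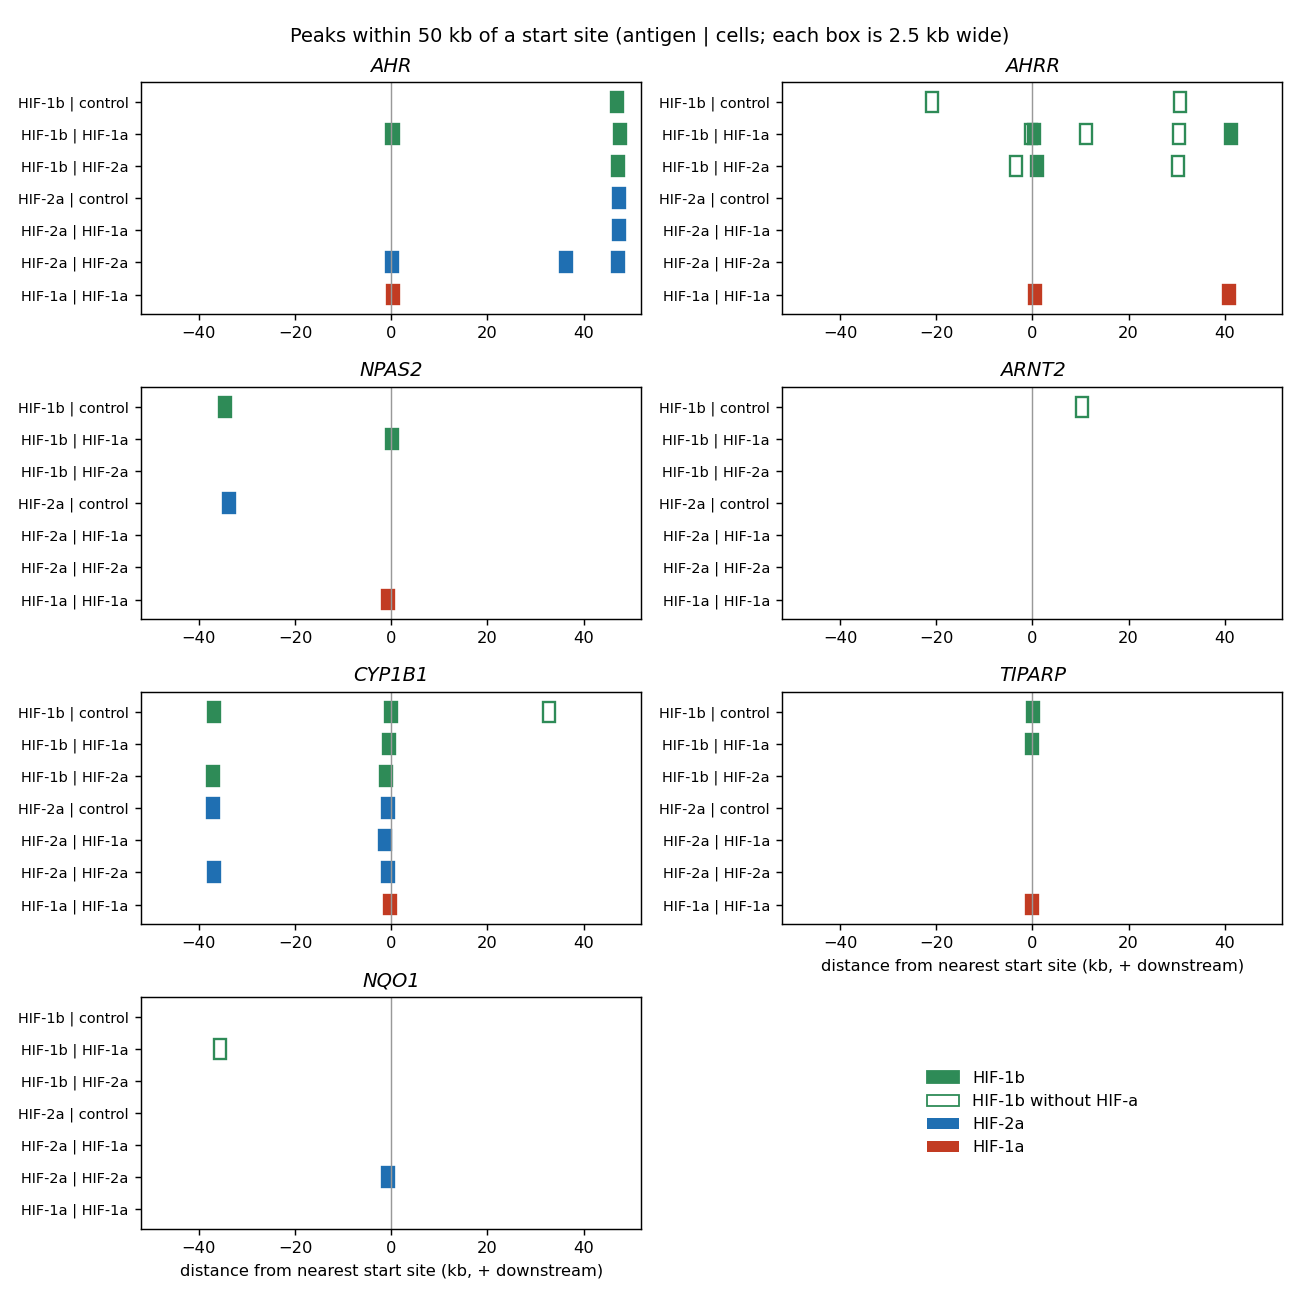
Peaks of the 7 ChIP-seq lists within 50 kb of the 7 genes that had any, by antigen and cells. The x axis is the distance in kb of a peak's midpoint from the nearest start site of the gene, positive downstream. Boxes are the deposited windows of 2500 bp, and open boxes are HIF-1b peaks that share no base with a HIF-a peak of any pool. CYP1B1 has a box at its start site in all 7 rows, and AHRR has an open box about 30 kb downstream in each of the 3 HIF-1b rows.

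At AHR, the ligand-binding partner of HIF-1b, no list of the control cells had a peak within 10 kb. In the HIF-1a cells a HIF-1b peak was centred 0.27 kb and a HIF-1a peak 0.455 kb downstream of a start site. The HIF-1a midpoint lay nearer, at 150 bp, to the start of ENSG00000237773 on the opposite strand. That peak cannot be assigned to either gene. In the HIF-2a cells a HIF-2a peak was centred 0.103 kb downstream, and the HIF-1b list of those cells had its closest peak at 47.2 kb. That distal site, downstream of the gene and nearer to the start of LINC02888, held peaks in 6 of the 7 lists, between 46.9 and 47.6 kb, the exception being HIF-1a. The start site of AHR was thus marked only in cells that carried extra HIF-a, and the distal site in all 3 pools. The window of 2500 bp at the start of AHR holds 3 matches to ACGTG, 4 to GCGTG, 1 to TNGCGTG and the CACGTG palindrome. Of 19853 genes 38.9% hold at least 1 TNGCGTG in such a window. The central 300 bp of each peak at the AHR start held 0 ACGTG and 0 CACGTG.

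AHRR encodes the AHR repressor, which takes HIF-1b away from AHR and whose gene is itself an AHR target. It was the gene with most HIF-1b peaks lacking HIF-a, a class that made up 1512 of 6572 HIF-1b peaks in control cells, 2240 of 5807 in HIF-1a cells and 546 of 3431 in HIF-2a cells. Within 10 kb of a start site 15.8% of all genes had such a peak in some pool (4.49% in control, 12.3% in HIF-1a and 2.05% in HIF-2a cells), so 1 gene of 9 is near that background. At AHRR these were chr5:320377-322876 in the HIF-1a cells, centred at -0.203 kb over the promoter shown above, and chr5:317164-319663 in the HIF-2a cells, at -3.42 kb. A second start site carried HIF-1b with HIF-1a in the HIF-1a cells, at 0.393 and 0.625 kb, and HIF-1b in the HIF-2a cells, at 0.885 kb, where no HIF-2a peak was listed.

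The intronic site of AHRR lay beyond the 10 kb limit, at 30.7 kb in control cells, 30.5 kb in HIF-1a cells and 30.3 kb in HIF-2a cells. It was the 1 place within 50 kb of the 9 genes where HIF-1b was listed in all 3 pools and no HIF-a list had a peak. The antiserum to HIF-1a was used in the HIF-1a cells alone, so in the other pools this rests on HIF-2a. The paper describes the truncated HIF-1a of these cells as able to bind DNA, which no list of those pools covers. The centre of the shared stretch is the AHRR sequence with 3 TNGCGTG above. In the central 300 bp of the single peaks there were 3 TNGCGTG in HIF-1a cells, 3 in HIF-2a cells and 0 in control cells, whose peak holds its 3 farther out. Over all HIF-1b peaks without HIF-a, the central 300 bp held a TNGCGTG in 5.95% in control, 7.81% in HIF-1a and 9.34% in HIF-2a cells. Among HIF-1b peaks with HIF-a it was 6.52%, 6.95% and 8.11%, so the letters were about as frequent in both kinds of peak. In control cells a further such peak, chr5:398867-401366, was also intronic in AHRR and had 2 TNGCGTG in its centre. Since GCGTG is also a HIF core, these letters do not tell which partner was bound, and no antiserum to AHR was used.

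Among NPAS2, ARNT2 and SIM2, only NPAS2 had a peak within 10 kb of a start site. NPAS2, a circadian transcription factor that works mainly with ARNTL, had a HIF-1b peak at 0.226 kb and a HIF-1a peak at -0.573 kb in the HIF-1a cells, and a HIF-1b and a HIF-2a peak at -34.5 and -33.7 kb in control cells. ARNT2, a close relative of ARNT best known from neurons, had a single HIF-1b peak without HIF-a in control cells, chr15:80771723-80774222, in an intron 10.4 kb from a start site. SIM2, a single-minded protein that mostly represses, had its closest peak of any list at 94.7 kb.

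CYP1B1, a cytochrome P450 that oxidises hydrocarbons and oestrogens, was the gene with peaks in all 7 lists. The midpoints lay between -1.29 and -0.013 kb of a start site, so its start was listed for HIF-2a and HIF-1b in control cells as well. The start of the antisense transcript CYP1B1-AS1 lay nearer to each midpoint, and the binding cannot be assigned to either transcript. Its 2500 bp window holds 5 TNGCGTG, and 0.0705% of 19853 genes hold as many. The central 300 bp of the HIF-1b peak at the start held 0 TNGCGTG in each pool. In the HIF-1a cells the HIF-1a and HIF-2a peaks there also held 0 in the centre. The HIF-2a peaks of the control and HIF-2a cells held 2 each. A second cluster, between -37.1 and -36.8 kb, held HIF-1b and HIF-2a in control and HIF-2a cells, and was absent from the lists of the HIF-1a cells.

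CYP1A1, the classic AHR-induced P450, had the next highest number of TNGCGTG in this window, 4, reached by 0.368% of genes, and no peak of any list within 50 kb. Its RefSeq promoter holds 0 TNGCGTG.

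TIPARP, a mono-ADP-ribosyltransferase that dampens AHR, had HIF-1b at 0.203 kb in control cells where no HIF-2a peak was listed. In HIF-1a cells HIF-1b was at 0.009 kb and HIF-1a at -0.132 kb. The midpoint of the HIF-1a peak lay nearer, at 12 bp, to the start of TIPARP-AS1 on the opposite strand. The control HIF-1b peak shares bases with that HIF-1a peak, so it counts as without HIF-a only when the lists of its own pool are used. NQO1, a quinone reductase that answers to AHR and more strongly to NRF2, had HIF-2a at -0.609 kb in the HIF-2a cells without HIF-1b, nearest to the start of the divergent transcript NQO1-DT. The 6 genes with a RefSeq promoter (AHR, AHRR, NPAS2, CYP1A1, TIPARP and NQO1) all held GCGTG in at least 1 promoter (36.5% of 35116 promoters do), 2 held ACGTG (21.4%), 2 held TNGCGTG (5.51%) and 1 held CACGTG (7.26%). AHRR has 2 and TIPARP 3 promoters in the table, so more letters were searched for them than for the others.

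In RNA-seq the libraries held 27852754 to 54287621 counts. HIF1A, which checks the labels, was at 171.5, 1682 and 473 CPM (counts scaled to the library total with edgeR's TMM factors) in HIF-1a replicates 1, 2 and 3, at 30.4, 36.7 and 151.6 in control and at 15.3, 30.4 and 17.5 in HIF-2a libraries. EPAS1, the gene of HIF-2a, was at 946, 3244 and 879.8 CPM in HIF-2a libraries at 456, 224 and 162 in control and at 575, 627 and 397 in HIF-1a libraries. In HIF-1a cells EPAS1 was thus 1.26, 2.80 and 2.45 times the control of the same number, with overlapping groups, and was not called (edgeR adjusted p of 0.365, and 0.154 with the block). ARNT was between 33.1 and 69.9 CPM in all 9 and was not called. The target gene of each virus was thus highest in its own pool, and HIF1A of control replicate 3 lay above the other control libraries. The renal and carcinoma markers PAX8, PAX2, CA9, KRT18, VIM and NNMT summed to 4315 to 6530 CPM. Most of this sum was VIM, at 3963 to 5671 CPM, while PAX8 was at 175.5 to 363.8 and PAX2 at 8.53 to 26.65. With the block CA9 was called higher and KRT18 lower in HIF-1a than in control cells. CA9 was at 0, 0.171 and 14.3 CPM in control and 8.46, 176.6 and 68.3 in HIF-1a libraries, so control replicate 3, the library with high HIF1A, lay above HIF-1a replicate 1. The part of these shifts in the results below was not tested. The 5 leukocyte, endothelial and hepatocyte markers summed to 0.174 to 1.04 CPM, with CD3E at 0 in every library. Bulk RNA cannot tell fewer cells from less RNA per cell. The paper states that RNA was prepared in triplicate. Neither it nor the labels say that the 3 libraries of a pool came from separate cultures. A p-value therefore measures the spread between these libraries, which may be technical.

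**Figure D2:**
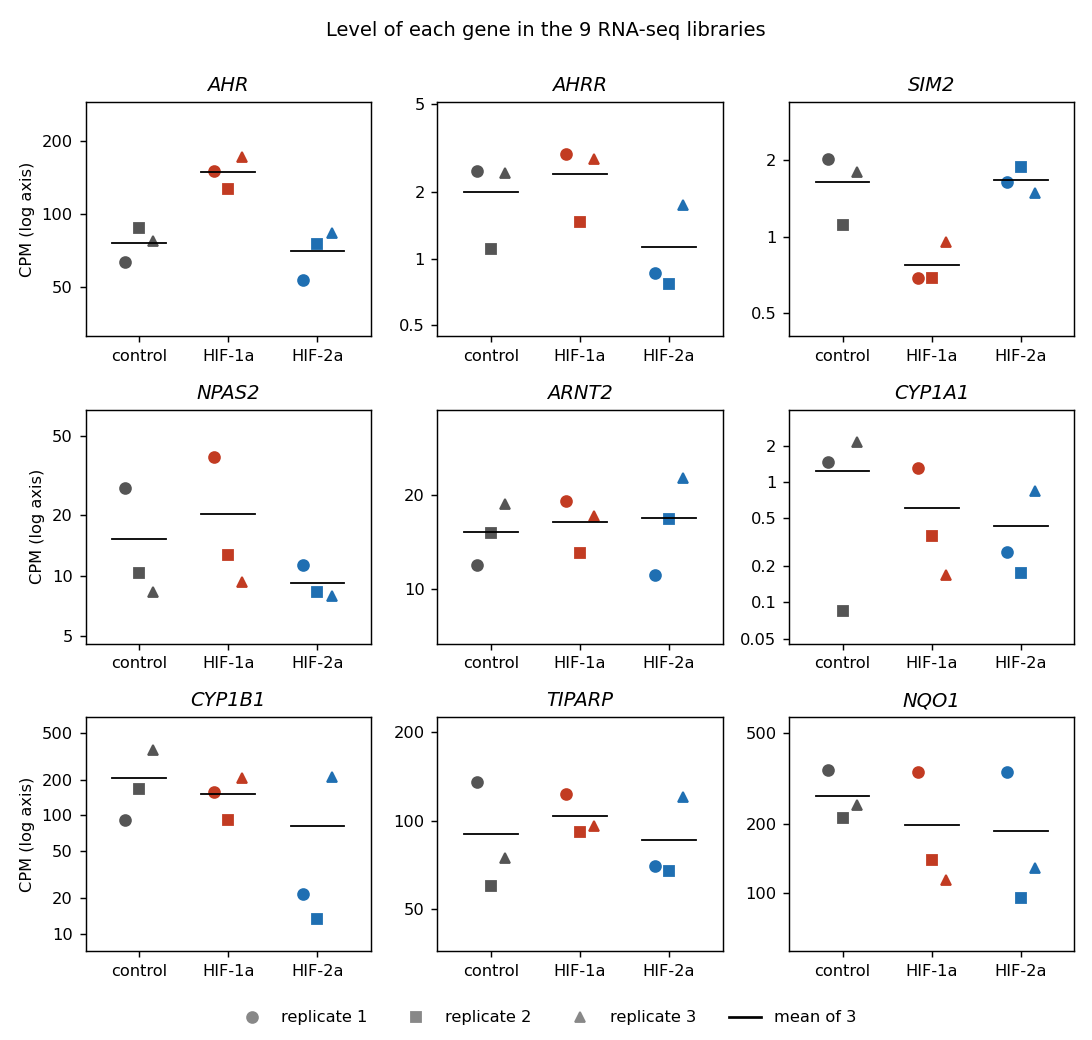
Level of each of the 9 genes in the 9 RNA-seq libraries, in CPM on a log axis that differs between panels. Points are libraries, shapes are replicate numbers and bars are means of 3. All 3 HIF-1a points of AHR lie above the other 6, and all 3 of SIM2 below the other 6.

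Per kilobase of transcript, the mean level over the 9 libraries was highest for NQO1 (86.1 CPM per kb), followed by CYP1B1 (27.96), TIPARP (24.1) and AHR (15.9). NPAS2 (3.71) and ARNT2 (2.49) came next, and AHRR (0.328), SIM2 (0.305) and CYP1A1 (0.291) were lowest. Neighbours in this order had overlapping ranges over the libraries, except ARNT2 and AHRR, which stood apart. For comparison ARNT itself was at 9.55 CPM per kb and ARNTL, the usual partner of NPAS2, at 4.47.

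AHR was at 63.8, 87.7 and 77.6 CPM in control replicates 1, 2 and 3, at 150.5, 127 and 172 in HIF-1a replicates and at 53.5, 75.5 and 83.9 in HIF-2a replicates. The HIF-1a libraries did not overlap with either other pool, while control and HIF-2a libraries did. The ratios to the control library of the same number were 2.36, 1.45 and 2.21 (mean 2.01 ± 0.489, SD, n = 3). In edgeR's quasi-likelihood test the log2 fold change was 0.97 ± 0.23 (SE) with an adjusted p of 0.149, past no threshold. With the replicate number as a block it was 0.98 ± 0.19 with an adjusted p of 0.0358 in edgeR, and DESeq2 without a block gave an adjusted p of 0.0182. The blocked call was lost when the libraries of any 1 replicate number were left out, with edgeR adjusted p of 0.066, 0.17 and 0.147 without numbers 1, 2 and 3. Without control replicate 3 alone and with no block the log2 fold change was 0.98 (edgeR adjusted p of 0.307).

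Against the HIF-2a cells the ratios of AHR were 2.81, 1.68 and 2.05. The log2 difference was 1.08 ± 0.23 with an adjusted p of 0.0872 without and 1.10 ± 0.19 with an adjusted p of 0.0150 with the block in edgeR, and the blocked call held without number 2 (0.0414) and not without numbers 1 (0.0883) or 3 (0.0621). AHR in HIF-2a against control cells was -0.11 ± 0.23 (edgeR adjusted p of 0.9503). AHR thus had a peak of the added HIF-a at its start site in both pools, but its transcript level was above control in the HIF-1a cells alone, and the difference between the pools passed the threshold with the block.

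Of the 9 genes, all of which passed the filter on low counts, edgeR without a block called 0 in both comparisons with control cells (0 of 14225 genes were called, 0%). With the block it called AHR higher in HIF-1a cells (5.41% of all tested genes were called higher and 2.55% lower) and 0 in HIF-2a cells (0.112% and 0.155%). Between HIF-1a and HIF-2a cells 0 of the 9 were called without the block (0.0281% higher, 0.0211% lower) and AHR with it (4.54% and 1.38%). At an unadjusted edgeR p under 0.05 without the block there were 2 genes, AHR and SIM2, in HIF-1a against control and against HIF-2a cells. In HIF-2a against control there were 0. Such a p was common over the 14225 tested genes, with 1586 higher and 1171 lower in HIF-1a against control. It was 1286 and 655 in HIF-1a against HIF-2a cells, and 476 and 362 in HIF-2a against control. The 3 HIF-1a libraries lay above all 3 control libraries for AHR (12.9% of tested genes) and below them for SIM2 (11.2%), and above all HIF-2a libraries for AHR (10.4%) and below for SIM2 (8.82%). No gene of the 9 separated HIF-2a from control libraries (6% of genes above, 5.19% below). Both comparisons with control use the same 3 control libraries.

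**Figure D3:**
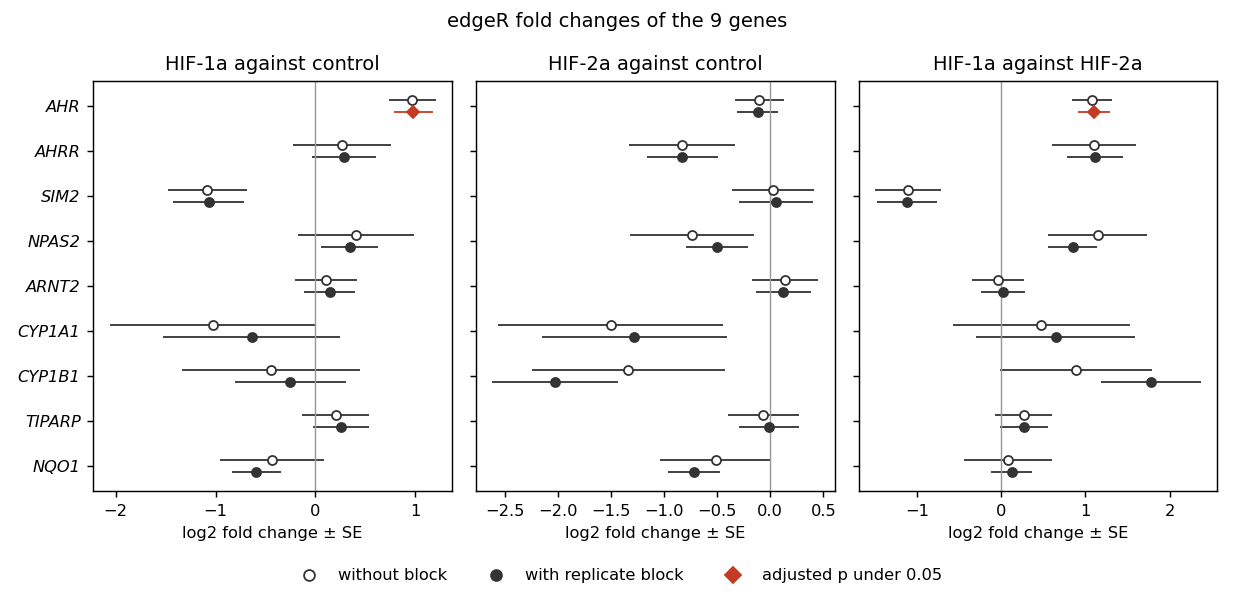
edgeR log2 fold changes of the 9 genes with SE in the 3 comparisons, without (open) and with (filled) the replicate block; the x axes differ. Red diamonds mark an adjusted p under 0.05, reached by AHR with the block in HIF-1a against control and HIF-1a against HIF-2a cells.

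SIM2 was at 2.02, 1.109 and 1.80 CPM in control, 0.686, 0.683 and 0.949 in HIF-1a and 1.64, 1.88 and 1.49 in HIF-2a libraries. The HIF-1a libraries were below all others, at 0.340, 0.616 and 0.528 of the control library of the same number. The log2 difference of -1.08 ± 0.39 did not pass in edgeR without (adjusted p of 0.200) or with the block (0.0811), nor did that against HIF-2a cells (-1.105 ± 0.39, 0.260 and 0.102). SIM2 overlaps HLCS on the opposite strand, which was also counted, and no strand setting is stated for the counts, so reads of both cannot be told apart here. The SIM2 counts are low, between 27 and 78 per library.

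AHRR was at 2.48, 1.109 and 2.45 CPM in control, 2.99, 1.47 and 2.81 in HIF-1a and 0.867, 0.768 and 1.75 in HIF-2a libraries. In each number it was highest in HIF-1a and lowest in HIF-2a cells, with ratios to control of 1.20, 1.32 and 1.15 in HIF-1a and 0.349, 0.692 and 0.713 in HIF-2a cells. Neither comparison with control passed, and HIF-1a against HIF-2a was 1.10 ± 0.50 in edgeR (adjusted p of 0.373 without and 0.0892 with the block). AHRR shares exons with the readthrough gene PDCD6-AHRR, and its counts are uncertain for that reason.

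NPAS2 showed the same order in each number, at 27.3, 10.2 and 8.26 CPM in control, 39.0, 12.6 and 9.23 in HIF-1a and 11.3, 8.27 and 7.91 in HIF-2a libraries. Most of its spread was between numbers, with replicate 1 highest in every pool. The difference between HIF-1a and HIF-2a cells was 1.15 ± 0.59 in edgeR without the block (adjusted p of 0.420) and 0.85 ± 0.29 with it (0.125). ARNT2 was between 11.1 and 22.7 CPM in all libraries, with overlapping pools and log2 differences from control of 0.11 ± 0.31 and 0.14 ± 0.31.

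Of the AHR targets none passed the test in either direction without the block or with all libraries in it. CYP1B1 was at 91.9, 167 and 358 CPM in control, 156, 90.9 and 205 in HIF-1a and 21.8, 13.4 and 209 in HIF-2a libraries. In HIF-2a replicates 1 and 2 it was 0.237 and 0.0806 of the paired control, and in replicate 3 0.584, so that the groups overlap through that library. The log2 difference between HIF-2a and control cells was -1.34 ± 0.91 (edgeR adjusted p of 0.842) and -2.03 ± 0.59 with the block (0.209). Between HIF-1a and HIF-2a cells it was 0.89 ± 0.90 without the block (edgeR adjusted p of 0.702) and 1.78 ± 0.60 with it (0.116), and with the block but without replicate 3 it was 2.80 ± 0.40 and passed (0.0211). The start of CYP1B1 held peaks in all 7 lists, and these levels ranged from 13.4 to 358 CPM over the RNA libraries, also within a pool. Each list is from 1 ChIP library and carries no height, so binding cannot be set against the level of single RNA libraries. CYP1B1 overlaps RMDN2 on the opposite strand, with the same limit as SIM2.

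CYP1A1 gave 57, 3 and 82 counts in control, 53, 14 and 9 in HIF-1a and 11, 5 and 33 in HIF-2a libraries, which is 0.0854 to 2.14 CPM. At these counts only a large change could be seen, with log2 differences from control of -1.03 ± 1.03 and -1.50 ± 1.06.

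TIPARP was at 134.9, 59.8 and 74.6 CPM in control, 123, 91.8 and 95.8 in HIF-1a and 69.8, 67.5 and 120.4 in HIF-2a libraries. The pools overlapped, and the log2 differences from control were 0.20 ± 0.34 and -0.06 ± 0.34, although HIF-1b and HIF-1a were listed at its start in HIF-1a cells.

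NQO1 was at 345, 214 and 242 CPM in control, 339, 139 and 115 in HIF-1a and 338, 94.9 and 128 in HIF-2a libraries. Replicate 1 was nearly the same in all pools, and in replicates 2 and 3 the ratios to control were 0.651 and 0.473 in HIF-1a and 0.444 and 0.530 in HIF-2a cells. With the block the log2 differences from control were -0.59 ± 0.24 (edgeR adjusted p of 0.131) and -0.72 ± 0.25 (0.254), neither past the threshold.

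Where the spread lay differed between the genes. For each gene the sum of squares of log2 CPM was divided into parts between pools, between replicate numbers and the rest, as a description with no test. For AHR and SIM2, 83.3% and 79.1% lay between pools, against a median of 32.6% over all tested genes. For NPAS2 and NQO1, 64.8% and 68.5% lay between replicate numbers, against a median of 35.9%. AHRR and CYP1B1 were divided between both, with 47.0% and 41.5% between pools and 42.8% and 39.8% between numbers.

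**Figure D4:**
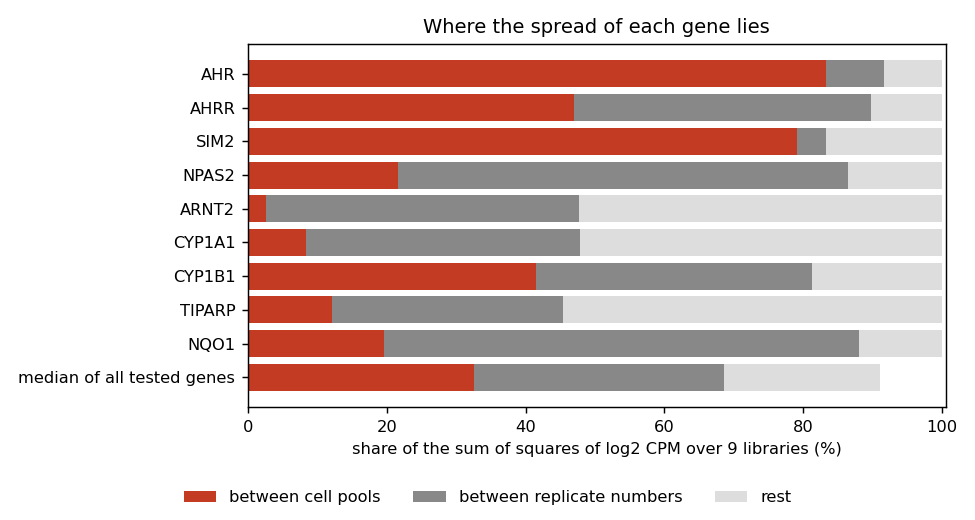
Share in percent of each gene's sum of squares of log2 CPM over 9 libraries that lay between pools, between replicate numbers and in the rest. The bottom bar holds the 3 medians over all 14225 tested genes, which need not add up to the whole. AHR and SIM2 are mostly red (pools), NPAS2 and NQO1 mostly dark grey (numbers).

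The 3 tested genes whose log2 CPM followed each gene most closely over the 9 libraries were found by Pearson's r, as likeness with no test. For AHR they were NAA30 (r = 0.959), SVIL (0.955) and TSPYL2 (0.939), and for SIM2 MRPS6 (0.939), C1GALT1C1 (0.927) and METTL7B (0.905). For AHRR they were BMP2 (0.978), ZNF497 (0.940) and SOCS1 (0.939), and for NPAS2 HMGA1 (0.964), NOV (0.943) and LINC00525 (0.942). For CYP1B1 they were TMEM163, PPAP2C and GRASP (0.938 to 0.952), for TIPARP STX1A, DUSP4 and IRAK2 (0.922 to 0.952), and for NQO1 MRPS10, RNH1 and CDC34 (0.970 to 0.985). For ARNT2 they were LOC730183, ZNF235 and FHOD3 (0.901 to 0.915), and for CYP1A1 CCDC116, DYX1C1 and HEATR2 (0.904 to 0.910). None of the 9 was among the closest 3 of another. These values come from 14224 genes ranked over 9 libraries that share pools and replicate numbers.

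The wider pathway was described from lists of known genes. Of 11 other basic helix-loop-helix PAS genes 9 were tested, and with the block HIF1A alone was called, in HIF-1a against control and against HIF-2a cells. CLOCK, ARNTL and ARNTL2, the circadian relatives that pair with or resemble NPAS2, were not called. All 11 genes of the AHR chaperone complex and coactivators were tested and 0 were called in any comparison with or without the block, with medians of 0.22 (HIF-1a) and 0.15 (HIF-2a) against control beside medians of 0.04 and -0.02 over all tested genes. HSP90AB1 and HSP90AA1, the chaperones that hold AHR, were at 1400 to 2094 and 1107 to 1874 CPM.

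Of 14 other AHR targets 11 were tested and 0 were called, with medians of 0.27 and -0.06. SLC7A5, an amino acid transporter, was at 1492, 1214 and 852 CPM in control, 1427, 824 and 214 in HIF-1a and 1726, 1694 and 1013 in HIF-2a libraries. EREG, an epidermal growth factor receptor ligand, was at 212, 152 and 226 CPM in control and 61.6, 21.0 and 106 in HIF-2a libraries, which do not overlap, and was not called (edgeR adjusted p of 0.796, and 0.226 with the block). In HIF-1a against control cells 9 of the 11 (81.8%) had a log2 fold change above 0, against 52.4% of all tested genes. In HIF-2a against control cells it was 4 of 11 (36.4%, against 47.5%). Among those above 0 in HIF-1a cells, CYP1A2, UGT1A1, CYP2S1 and SERPINB2 had at most 38 counts in any library, so their signs are uncertain. These shares were not tested. With 5.41% of all tested genes called higher and 2.55% lower with the block in HIF-1a against control cells, 0 of 11 is near the background.

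Of 13 NRF2 targets, a list that bears on NQO1, all were tested and 0 were called against control cells. With the block FTL and FTH1, the ferritin chains that store iron, were higher in HIF-1a than in HIF-2a cells, by 1.04 ± 0.19 and 1.09 ± 0.23 on the log2 scale (edgeR adjusted p of 0.0158 and 0.0265, and 0.405 and 0.312 without the block). Of 8 enzymes of the tryptophan-kynurenine route, whose products include AHR ligands, 6 were tested. KMO, which hydroxylates kynurenine, was at 11.6, 41.1 and 75.2 CPM in control, 5.17, 22.96 and 36.6 in HIF-1a and 15.1, 40.0 and 110.1 in HIF-2a libraries. It was lower in HIF-1a cells with the block, with log2 differences of -1.004 ± 0.197 from control and -1.31 ± 0.198 from HIF-2a cells (edgeR adjusted p of 0.0357 and 0.00815), and not without it (0.543 and 0.521). IDO1 and TDO2, which make kynurenine, were at up to 0.454 and 2.81 CPM and were not called. IL4I1, another enzyme of this list, was at 7.02 to 28.2 CPM and was not called either.

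**Figure D5:**
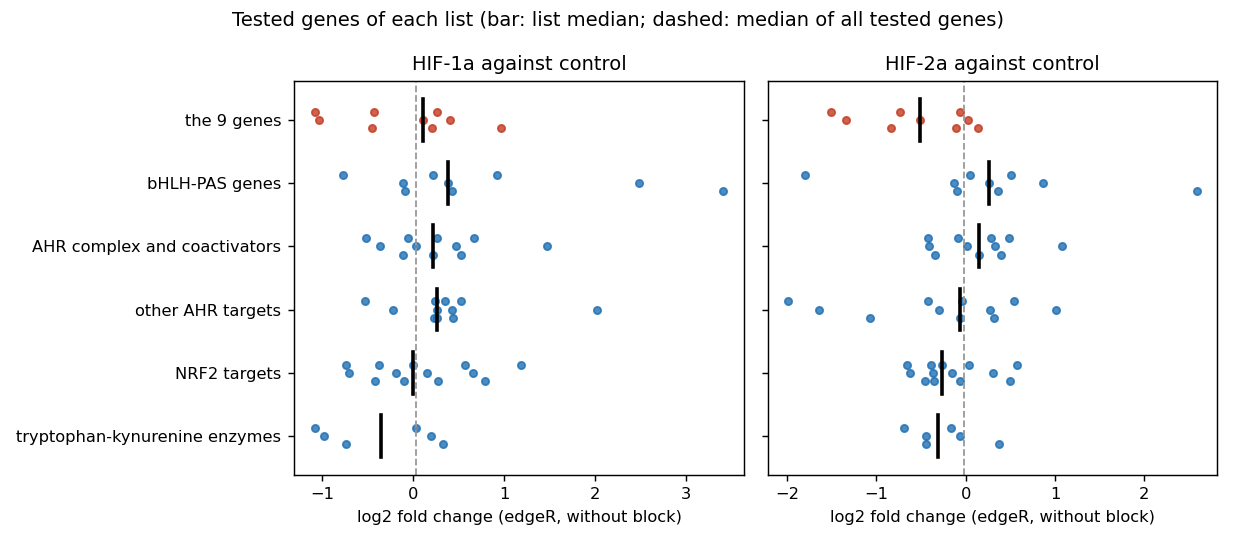
edgeR log2 fold changes without the block of the tested genes of each list (points) against control cells. Bars are list medians and the dashed line is the median of all tested genes. The 9 genes have a median of 0.11 in HIF-1a and -0.51 in HIF-2a cells, with 5 and 2 of 9 above 0.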

How the data were processed

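The RNA-seq table that the authors deposited holds unnormalized counts of 23441 gene symbols in 9 libraries. They aligned reads to GRCh37 with TopHat 2.0.8b and Bowtie 1.0.0, and counted uniquely mapping fragments with HTSeq 0.5.4p3 (versions from the submitters' processing notes). The kit was directional, and the strand setting of the counting is not given in the sources used here. For ChIP-seq the deposited lists hold peak coordinates alone, called by both T-PIC and MACS and widened to 2500 bp, so their depth is unknown.

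All 9 libraries entered 1 edgeR 4.0.16 fit (R 4.3.3; TMM factors, edgeR's filter on low counts, 14225 genes, quasi-likelihood test) with the pool as term. P-values were adjusted by Benjamini-Hochberg over all tested genes, with a threshold of 0.05. To check the replicate numbers, deviations from the pool means were correlated across genes between pools: r was 0.348 to 0.652 in the 9 same-number pairs and -0.478 to 0.0281 in the 18 others. The numbers therefore pair the libraries (the check, not the labels, shows this), and a fit with the number as a block was run. DESeq2 1.42.0, RLE factors, no filter, 6 libraries and leaving out libraries were further alternatives; those with the block and a number left out were added after seeing the data. Replicates of a pool differed beyond counting noise (chi-square per degree of freedom of 164 to 423). Each fit was also run on counts simulated from its own estimates, with 200 genes changed 2-fold in HIF-1a against control. The fit without the block recovered 11.5% of them on counts without replicate effects. The fit with the block recovered 40% on counts with replicate effects and a smaller dispersion. The simulated counts differed, so these 2 shares do not compare the fits.

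Start sites, introns and transcript lengths were from GENCODE 44 lifted to GRCh37. Of 23441 symbols 20654 matched by name and 1409 by an older symbol. A HIF-1b peak was without HIF-a when it shared no base with any peak of the 4 HIF-a lists. Named genes are the 9 members, HIF1A, EPAS1 and ARNT, the 3 most alike genes per member, and from each list those called or otherwise the 2 most abundant. CLOCK, ARNTL, ARNTL2, EREG, IDO1, TDO2 and IL4I1 were named for their role or values. Members and lists were chosen with earlier results of these data known.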

Additional observations from a re-analysis of the deposited data

Results flagged for a closer look

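The effects of HIF-1a and HIF-2a on AHR differed by 1.10 on the log2 scale in the edgeR fit with the replicate block (adjusted p of 0.0150), which is the test of the difference between the pools, and AHR was higher in HIF-1a than in HIF-2a cells in 3 of 3 numbers. Without the block the adjusted p was 0.0872 in edgeR.

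For AHRR and NPAS2 every HIF-1a library was above and every HIF-2a library below the control library of the same number. How many of all tested genes show this pattern was not computed, so it has no background beside it. The effects differed by 1.10 (AHRR) and 1.15 (NPAS2) on the log2 scale in the edgeR fit without the block. With the block the difference was smaller for NPAS2, as given above. In edgeR the difference did not pass the threshold for AHRR (adjusted p of 0.373, and 0.0892 with the block) or NPAS2 (0.420, and 0.125 with the block). Both effects are measured against the same 3 control libraries.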

How the results depend on the processing

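The counts of called genes depended on the replicate block and on the tool. Over all tested genes edgeR without it called 0 in HIF-1a against control, 0 in HIF-2a against control and 7 in HIF-1a against HIF-2a cells, the fit with the replicate block called 1132, 38 and 843, and DESeq2 called 751, 65 and 650. Without a filter on low counts edgeR called 1 in HIF-2a against control and 82 in HIF-1a against HIF-2a cells, and with only the 6 libraries compared it called 2 and 0 in these. At an unadjusted p under 0.05 edgeR without the block had 1586 genes higher and 1171 lower in HIF-1a against control, and 476 higher and 362 lower in HIF-2a against control. Leaving out each library in turn gave 0, 0 to 2 and 0 to 29 calls in the 3 comparisons. With the block and without replicate number 1, 2 or 3 it was 295, 0 and 1 in HIF-1a against control, 30, 9 and 7 in HIF-2a against control and 334, 386 and 265 in HIF-1a against HIF-2a cells. Among the 9 genes the block changed the call of AHR alone. CYP1B1 passed in HIF-1a against HIF-2a cells with the block and without replicate number 3. The causes were not tested.

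AHR kept its direction in HIF-1a against control and against HIF-2a cells under all 17 alternatives (log2 of 0.83 to 1.18 and 0.88 to 1.252, adjusted p of 0.0182 to 0.347 and 0.0042 to 0.286), and was called in 2 and 3 of them, edgeR with the block and DESeq2 included. SIM2 also kept its direction in both (-1.31 to -0.83 and -1.37 to -0.94) and was called in none. With the block ARNT2 in HIF-1a against HIF-2a cells changed sign, to 0.0191. Signs of the following log2 values, none of them called, changed when a library was left out. In HIF-1a against control these were AHRR (-0.041 to 0.50), NPAS2 (-0.49 to 1.13), ARNT2 (-0.048 to 0.274), CYP1B1 (-0.805 to 0.21) and TIPARP (-0.030 to 0.62). In HIF-2a against control they were AHR (-0.235 to 0.066), SIM2 (-0.191 to 0.198), ARNT2 (-0.12 to 0.37) and TIPARP (-0.379 to 0.35). In HIF-1a against HIF-2a cells they were ARNT2 (-0.291 to 0.204), CYP1A1 (-0.74 to 1.401), NQO1 (-0.56 to 0.80) and ARNT (-0.115 to 0.35). With the block and a replicate number left out they were, in HIF-1a against control, ARNT2 (-0.18 to 0.29), CYP1A1 (-1.39 to 0.39) and CYP1B1 (-0.85 to 0.146), in HIF-2a against control SIM2 (-0.30 to 0.26) and TIPARP (-0.41 to 0.45), and in HIF-1a against HIF-2a cells ARNT2 (-0.39 to 0.226, and 0.196), CYP1A1 (-0.42 to 1.83), NQO1 (-0.076 to 0.25) and ARNT (-0.12 to 0.29).

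The number of genes with a peak was 6 within 5 kb, 7 within 50 kb and 4 with 1 start site per gene. Genes with a HIF-1b peak lacking HIF-a were 4 within 50 kb and 2 (AHRR and TIPARP) when only HIF-a lists of the same pool were used. The share of all genes was computed only within 10 kb of any start site, so these alternative counts have no background beside them. Depth limits CYP1A1, AHRR and SIM2, at 3 to 151 counts per library.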
